A study of Mus musculus with 6 samples.

Results

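The 10 genes described here encode the ESCRT and abscission machinery, which parts the daughter cells at the end of division. They were chosen by gene symbol out of 24421 symbols in the deposited table. They are the midbody recruiter Cep55, its partners Pdcd6ip (which encodes ALIX) and Tsg101, the ESCRT-III subunits Chmp4b, Chmp4c, Chmp2a and Chmp2b, the ATPases Vps4a and Vps4b, and Spast, which encodes spastin. All 10 were in the table, and all 10 passed the filter on low values of at least 1 FPKM in at least 3 libraries, as did 12121 symbols in all. FPKM is the number of fragments scaled to the length of the gene and to the depth of the library, so levels of different genes can be set beside each other.

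The last step of cell division, abscission, cuts the thin bridge that still joins the daughter cells. In mammalian cells the protein CEP55 gathers at the midbody in the middle of that bridge and recruits ALIX and TSG101, which bring in the CHMP proteins of the ESCRT-III complex. CHMP filaments narrow the membrane, the ATPases VPS4A and VPS4B take the filaments apart, and the enzyme spastin cuts the microtubules that run through the bridge. Most of these proteins also serve outside division, in sorting membrane proteins into endosomes and in membrane repair, whereas CEP55 is known mainly from dividing cells. Cardiomyocytes of the mouse divide before birth and then largely stop completing cytokinesis.

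Polyadenylated RNA was sequenced from whole hearts of C57/Bl6 mouse embryos at stage E18.5, shortly before birth. One group of 3 libraries was labelled Gas2l3 -/-, for the loss of both copies of the gene for the cytoskeletal crosslinker GAS2L3, which binds actin and microtubules and is found at the midbody of dividing cells. The other group of 3 libraries was labelled wildtype. How Gas2l3 was disrupted is not stated in the labels, nor whether all cells of the embryo carried the change, nor whether the 3 libraries of a group came from separate embryos. A p-value here therefore reflects only how far these samples vary, which may be technical. The comparison asks whether hearts without GAS2L3 hold a different amount of RNA for the abscission machinery.

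The libraries held 5514800 to 6483168 reads in the Gas2l3 -/- group and 3414257 to 7732674 reads in the wildtype group, of which wildtype replicate 1 was the shallowest. Wildtype replicate 3 stood apart, with a mean correlation of 0.899 with the other libraries, against 0.935 to 0.957 for each of the other 5. Markers of cardiomyocytes summed to 28242 to 31324 FPKM in Gas2l3 -/- hearts and to 32154 to 45096 FPKM in wildtype hearts. Those 6 markers had lower means in Gas2l3 -/- hearts in 6 of 6 cases. Their groups overlapped for every one, where groups did not overlap for 9.76% of all tested genes. Macrophage markers summed to 63.9 to 107.8 FPKM in Gas2l3 -/- hearts and to 40.3 to 65.2 FPKM in wildtype hearts. Of these 6 genes, 5 had higher means in Gas2l3 -/- hearts, and the groups did not overlap for 2. Means were also higher for 4 of 6 fibroblast, 3 of 5 endothelial and 3 of 3 tested erythroid markers. Among smooth muscle and pericyte markers they were higher for 2 of 5. Groups did not overlap for 1 fibroblast and 1 endothelial marker, and for 0 of the tested erythroid, smooth muscle and pericyte markers. The part of cell makeup in the values below was not tested. The 3 skeletal muscle markers in the table, Myod1, Myf5 and Pax7, were at 0 in every library.

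Gas2l3 itself had 4.03, 2.99 and 3.06 FPKM in Gas2l3 -/- replicates 1, 2 and 3, against 10.3, 4.12 and 2.48 FPKM in wildtype replicates 1, 2 and 3. Wildtype replicate 3 was the lowest of the 6 libraries, so the groups overlapped and the RNA level does not check the genotypes, which are used as labelled. By limma the log2 fold change came to −0.47, with an SE of 0.44 and an adjusted p of 0.966. It was 0.047 without wildtype replicate 1 and −0.885 without wildtype replicate 3. With each library's trends on GC content and gene length taken out it was −0.545 (SE 0.27, limma adjusted p = 0.685), and the groups still overlapped.

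No change was found for any of the 10 genes. With limma, 0 of the 10 passed an adjusted p of 0.05, and across all 12121 tested genes 0 passed (0%). At an unadjusted p of 0.05 again 0 of the 10 passed, where 394 of all tested genes did (3.25%). Mean levels were lower in Gas2l3 -/- hearts for 5 of the 10 and higher for 5, and the median log2 fold change was −0.005, beside −0.009 over all tested genes. Fold changes ran from −0.15 for Vps4a to 0.39 for Chmp4c, with adjusted p between 0.966 and 0.999. The 95% intervals all included 0 and were widest for Cep55, at −0.95 to 0.73 on the log2 scale, and narrowest for Vps4a, at −0.69 to 0.40. In bulk tissue, fewer cells that express a gene and less of its RNA per cell cannot be told apart.

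**Figure D1:**
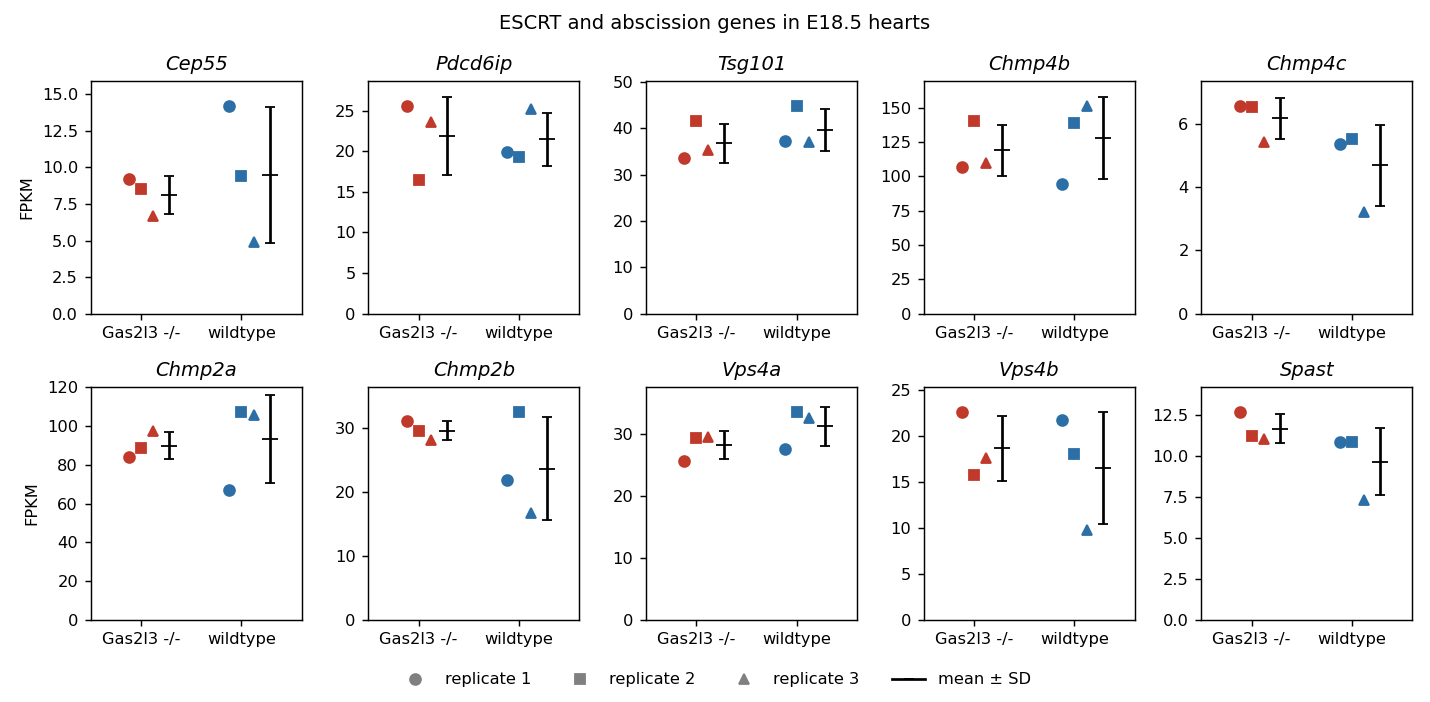
FPKM of the 10 genes (vertical axes, each from 0) in 3 Gas2l3 -/- and 3 wildtype hearts; circles, squares and triangles are replicates 1, 2 and 3, and bars are the mean ± SD of 3 libraries. For Spast alone do the groups not overlap, and wildtype replicate 3 is the lowest point for Cep55, Chmp4c, Chmp2b, Vps4b and Spast.

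Cep55 (ENSMUSG00000024989.15) lies on the plus strand of chromosome 19, at 38055011 to 38074423 of GRCm38. It had 9.19, 8.56 and 6.67 FPKM in Gas2l3 -/- replicates 1, 2 and 3, against 14.2, 9.42 and 4.90 FPKM in wildtype replicates 1, 2 and 3. The wildtype group held both the highest and the lowest library, and every Gas2l3 -/- value lay between them. The mean was 8.14 ± 1.31 FPKM in Gas2l3 -/- hearts and 9.51 ± 4.65 FPKM in wildtype hearts (SD, n = 3 each). The log2 fold change was −0.11 (SE 0.37, 95% interval −0.95 to 0.73, limma adjusted p = 0.980). Behind these values stood 83 to 199 reads per library.

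The value for Cep55 moved with single libraries. Its log2 fold change was 0.23 without wildtype replicate 1 and 0.020 without Gas2l3 -/- replicate 3, both with the sign turned. Without wildtype replicate 3 it was −0.50 (SE 0.24, limma unadjusted p = 0.0835, not called after adjustment). With a common FPKM total it was 0.050, where the median of all genes was 0.15, and with voom on the recovered reads 0.078, where that median was 0.14. After each library's trends on GC content and gene length were taken out, Cep55 was lower in Gas2l3 -/- hearts in 3 of 3 same-numbered pairs, with a log2 difference of −0.34 (SE 0.20, limma adjusted p = 0.718). On that scale the groups still overlapped, since Gas2l3 -/- replicates 1 and 2 stood at 3.13 and 3.04, above wildtype replicate 3 at 3.03.

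The promoters of Cep55 and Gas2l3 are shown because many genes of late cell division carry a cell cycle homology region, a short element bound by the MuvB complex, and because the abscission genes differ in whether they hold its letters. Each run holds 250 bases before and 50 bases after a transcription start of RefSeq (GRCm38.p6), 5′ to 3′ on the gene's own strand, with the hexamer in capitals. The letters searched were TTTGAA on either strand, which reads TTCAAA on the other, and TTCGAA, which is its own reverse complement.
Cep55, chr19:38054734-38055033, plus strand: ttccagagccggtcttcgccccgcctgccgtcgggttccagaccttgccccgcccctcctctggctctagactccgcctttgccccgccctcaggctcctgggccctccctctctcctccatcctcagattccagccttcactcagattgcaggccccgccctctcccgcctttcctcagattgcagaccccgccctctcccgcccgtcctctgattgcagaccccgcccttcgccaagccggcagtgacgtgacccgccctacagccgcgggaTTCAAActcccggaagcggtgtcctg
Gas2l3, chr10:89443918-89444217, minus strand: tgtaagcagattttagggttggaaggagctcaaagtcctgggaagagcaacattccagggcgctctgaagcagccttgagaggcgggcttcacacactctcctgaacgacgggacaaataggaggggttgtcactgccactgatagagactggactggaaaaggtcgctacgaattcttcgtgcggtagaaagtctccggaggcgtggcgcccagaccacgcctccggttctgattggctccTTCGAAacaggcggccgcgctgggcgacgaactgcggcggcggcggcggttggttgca
The hexamer begins 25 bases after this start in Cep55, which is 33 bases before a second annotated start, and 8 bases before the start in Gas2l3. Of the 10 genes, 9 had a promoter in the table and 3 of those held the hexamer, Cep55, Pdcd6ip (134 bases before the start) and Chmp2b (53 bases before the start). Counted by gene, with a match in any annotated promoter, it was found for 9 of 10 midbody genes listed further on. It was found likewise for 7 of 9 proliferation genes and for 21.7% of all 27025 symbols of the table. A match is only a description of the letters in this window.

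Pdcd6ip and Tsg101 encode the adaptors that join CEP55 to ESCRT-III, ALIX as a direct arm and TSG101 as the core of the ESCRT-I complex. On GRCm38, Pdcd6ip spans 113651744 to 113708259 on the minus strand of chromosome 9, and Tsg101 spans 46888949 to 46919969 on the minus strand of chromosome 7. Pdcd6ip had 25.6, 16.4 and 23.5 FPKM in Gas2l3 -/- replicates 1, 2 and 3, against 19.9, 19.2 and 25.2 FPKM in wildtype replicates 1, 2 and 3. The values interleaved, and the log2 fold change was 0.01 (SE 0.27). Tsg101 had 33.5, 41.5 and 35.2 FPKM in Gas2l3 -/- replicates 1, 2 and 3, against 37.2, 44.8 and 37.0 FPKM in wildtype replicates 1, 2 and 3. It was lower in Gas2l3 -/- hearts in 3 of 3 same-numbered pairs, but the groups overlapped, and limma put the log2 difference at −0.11 with an SE of 0.25 (adjusted p = 0.970). With GC and length trends removed together, Tsg101 was the 1 gene of the 10 whose groups did not overlap, as they did not for 15.5% of all genes on that scale. Its values there were 5.02, 5.07 and 5.09 on the log2 scale in Gas2l3 -/- hearts and 5.16, 5.38 and 5.88 in wildtype hearts, a difference of −0.41 (SE 0.20, limma adjusted p = 0.684). With the trends removed one after the other in place of together, it was Chmp4c whose groups did not overlap, beside 15% of all genes.

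Among the ESCRT-III genes, Chmp4b and Chmp4c encode forms of the subunit that builds the filament, and CHMP4C also acts in the checkpoint that delays abscission while chromatin lies in the bridge. Chmp4b spans 154651705 to 154694785 of chromosome 2 and Chmp4c 10366907 to 10428856 of chromosome 3, both on the plus strand. Chmp4b was the most abundant of the 10, with 107, 140.2 and 109.5 FPKM in Gas2l3 -/- replicates 1, 2 and 3, against 94.4, 138.4 and 151.2 FPKM in wildtype replicates 1, 2 and 3. Both extremes lay in the wildtype group, and the log2 fold change was −0.09 (SE 0.31). Chmp4c was the least abundant, with 6.56, 6.53 and 5.41 FPKM in Gas2l3 -/- replicates 1, 2 and 3, against 5.36, 5.51 and 3.21 FPKM in wildtype replicates 1, 2 and 3. It was higher in Gas2l3 -/- hearts in 3 of 3 same-numbered pairs, with groups that overlapped only in that Gas2l3 -/- replicate 3 lay below wildtype replicate 2. Its log2 fold change of 0.39 (SE 0.27, limma unadjusted p = 0.188, adjusted p = 0.966) had the smallest unadjusted p of the 10 and rested on 35 to 76 reads per library. Without wildtype replicate 3 it was 0.16, and with GC and length trends removed it was 0.14. Exons of Chmp4c overlap those of Snx16 on the other strand by up to 159 bases, and the use of strand in the authors' counting is not given in the sources used here.

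Chmp2a and Chmp2b encode the subunit that caps the filament and binds VPS4. They lie on the minus strand, Chmp2a at 13032010 to 13034807 of chromosome 7 and Chmp2b at 65539128 to 65562726 of chromosome 16. Chmp2a had 83.9, 88.8 and 97.4 FPKM in Gas2l3 -/- replicates 1, 2 and 3, against 66.9, 107.3 and 105.6 FPKM in wildtype replicates 1, 2 and 3. The Gas2l3 -/- values all lay inside the wildtype range, and the log2 fold change was −0.02 (SE 0.30). Chmp2b had 31.1, 29.4 and 28.0 FPKM in Gas2l3 -/- replicates 1, 2 and 3, against 21.8, 32.4 and 16.6 FPKM in wildtype replicates 1, 2 and 3. The Gas2l3 -/- libraries lay close together below wildtype replicate 2 and above the other two wildtype libraries. The log2 fold change of 0.37 (SE 0.30, limma adjusted p = 0.966) was 0.15 without wildtype replicate 3 and 0.04 with GC and length trends removed.

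The ATPases take ESCRT-III filaments apart in every ESCRT reaction. Vps4a lies on the plus strand of chromosome 8 at 107031222 to 107045755, and Vps4b on the minus strand of chromosome 1 at 106764071 to 106796728. Vps4a had 25.6, 29.4 and 29.6 FPKM in Gas2l3 -/- replicates 1, 2 and 3, against 27.7, 33.6 and 32.6 FPKM in wildtype replicates 1, 2 and 3. It was lower in Gas2l3 -/- hearts in 3 of 3 same-numbered pairs, the groups overlapped, and limma put the log2 difference at −0.15 with an SE of 0.24 (adjusted p = 0.966). Exons of Vps4a overlap those of Pdf on the other strand by up to 57 bases. Vps4b had 22.6, 15.7 and 17.6 FPKM in Gas2l3 -/- replicates 1, 2 and 3, against 21.7, 18.0 and 9.73 FPKM in wildtype replicates 1, 2 and 3. Wildtype replicate 3 was the lowest library, and the other 5 interleaved. The log2 fold change of 0.23 (SE 0.33) was −0.10 without that library and 0.00 with GC and length trends removed.

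Spast, on the plus strand of chromosome 17 at 74338987 to 74391115, was the 1 gene of the 10 whose groups did not overlap as deposited, which was so for 9.76% of all tested genes. It had 12.7, 11.2 and 11.1 FPKM in Gas2l3 -/- replicates 1, 2 and 3, against 10.8, 10.8 and 7.30 FPKM in wildtype replicates 1, 2 and 3. The gap between the lowest Gas2l3 -/- library and the highest wildtype library was small beside the distance of wildtype replicate 3 from the rest. The mean was 11.7 ± 0.89 FPKM in Gas2l3 -/- hearts and 9.66 ± 2.04 FPKM in wildtype hearts (SD, n = 3 each), and the log2 fold change was 0.28 (SE 0.25, 95% interval −0.30 to 0.85, limma adjusted p = 0.966). It was 0.10 without wildtype replicate 3 and 0.15 with GC and length trends removed, where the groups overlapped.

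**Figure D2:**
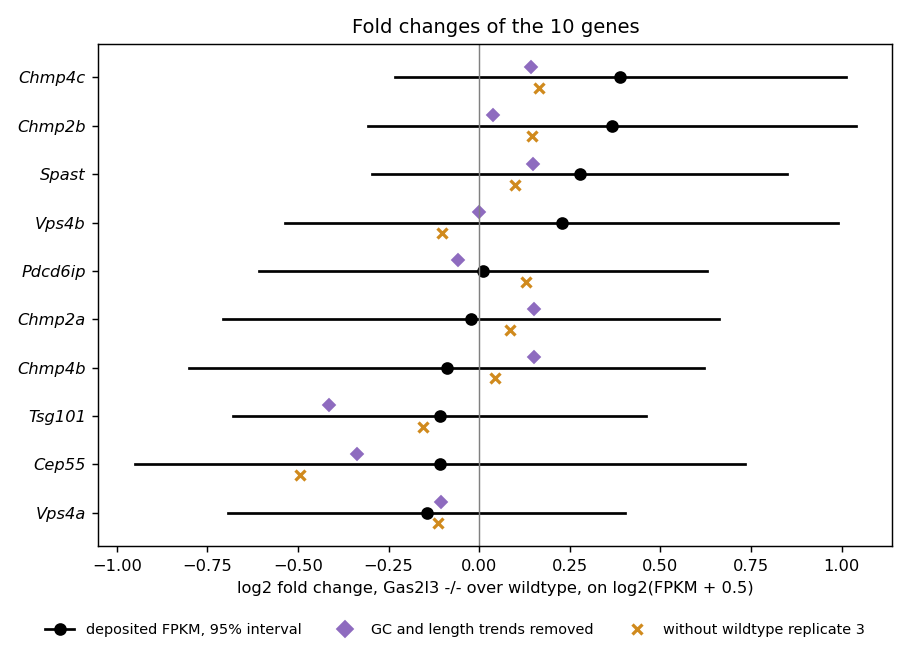
Log2 fold changes (horizontal axis, Gas2l3 -/- over wildtype, on log2(FPKM + 0.5)) of the 10 genes; circles with lines are the deposited FPKM with 95% intervals from limma, diamonds have GC and length trends removed, and crosses leave out wildtype replicate 3. All 10 intervals include 0, and leaving out wildtype replicate 3 moves Cep55 the most to the left, to −0.50.

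The 5 genes with their lowest value in wildtype replicate 3 (33.9% of all tested genes had theirs there) were low in GC content, at 41.7% for Vps4b to 45.6% for Chmp4c. Chmp4b, with 55.1% GC, was the 1 gene highest in that library, as were 37.5% of all tested genes. Across the 10 genes, the deviation of wildtype replicate 3 from the mean of the other libraries followed GC content with a correlation of 0.818, and across 48 ESCRT and accessory genes with one of 0.797. Across all 11709 genes with a GC value it was 0.702, so the trend was one of the whole library. These correlations are across genes, which are not independent replicates. Tsg101, with 44.0% GC, stood only 0.05 below the other libraries on the log2 scale, while Cep55, with 44.4%, stood 0.86 below.

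**Figure D3:**
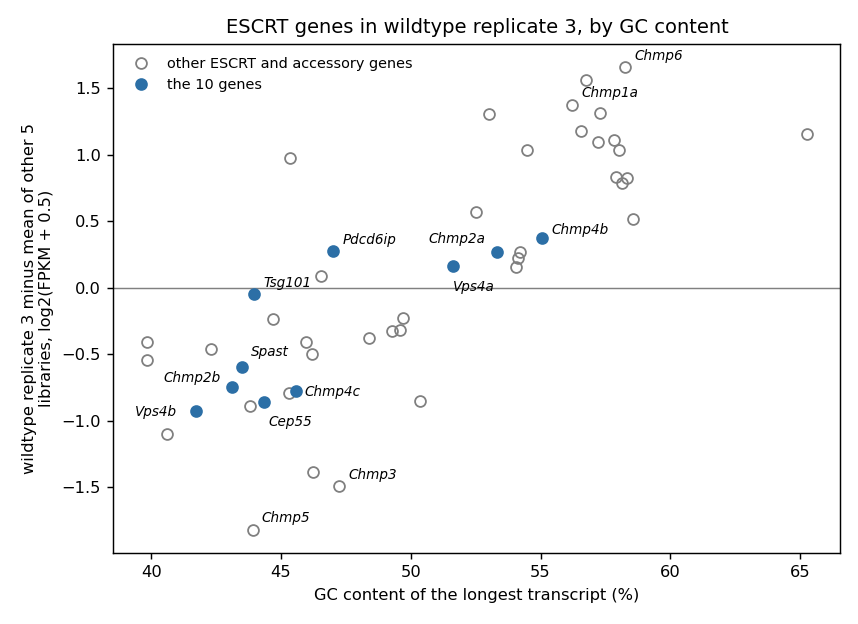
Deviation of wildtype replicate 3 from the mean of the other 5 libraries (vertical axis, log2(FPKM + 0.5)) against the GC content of the longest transcript (horizontal axis, %), for the 10 genes (filled) and other ESCRT and accessory genes (open). Points of low GC content lie mostly below 0 and those of high GC content above it, with Pdcd6ip, at 0.28 and 47.0% GC, among the exceptions.

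By mean FPKM over the 6 libraries, the order was Chmp4b, Chmp2a, Tsg101, Vps4a, Chmp2b, Pdcd6ip, Vps4b, Spast, Cep55 and Chmp4c. Between neighbours in that order the ranges over libraries did not overlap for Chmp2a and Tsg101 alone. Chmp4b and Chmp2a stood above 94.6% and 92.7% of all tested genes by mean level, Cep55 above 44.8% and Chmp4c above 30.8%. The highest library exceeded the lowest by a median of 1.67-fold over the 10 genes, beside 2.28-fold over all tested genes. Cep55 varied most of the 10, by 2.90-fold, then Vps4b by 2.32-fold, and Vps4a least, by 1.31-fold.

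For the 3 subunits encoded by a pair of genes, the ratio within the pair was compared between the groups, and no difference passed the test. Chmp4c stood at 0.0615, 0.0466 and 0.0494 of the FPKM of Chmp4b in Gas2l3 -/- replicates 1, 2 and 3, against 0.0567, 0.0398 and 0.0212 in wildtype replicates 1, 2 and 3. Chmp2b stood at 0.370, 0.331 and 0.288 of Chmp2a in Gas2l3 -/- hearts, against 0.325, 0.302 and 0.157 in wildtype hearts. Vps4b stood at 0.880, 0.534 and 0.593 of Vps4a in Gas2l3 -/- hearts, against 0.783, 0.537 and 0.298 in wildtype hearts. In all 3 ratios wildtype replicate 3 was the lowest library, and the gene with the lower GC content was on top. The log2 ratio was higher in Gas2l3 -/- hearts by 0.52, 0.40 and 0.38 for the CHMP4, CHMP2 and VPS4 pairs, with exact permutation p of 0.3, 0.4 and 0.5 (two-sided, adjusted p = 0.5 for each over 3 pairs). The smallest p that 3 against 3 libraries allow is 0.1. Without wildtype replicate 3 the differences were 0.13, 0.07 and 0.01.

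Around the 10 genes, no list of the wider pathway held a gene that passed an adjusted p of 0.05. The medians of the lists without 1 library, given below, were added after the values were seen. ESCRT-0, which first binds ubiquitinated cargo, had 1 of 3 genes with a higher mean in Gas2l3 -/- hearts and 2 with a lower one, with a median log2 fold change of −0.04, which ran from −0.12 to 0.18 when each library was left out. Hgs stood at −0.31, Stam at 0.16 and Stam2 at −0.04. ESCRT-I, with Tsg101 among its 9 genes, had 8 lower means and a median of −0.33, with Vps37b at −0.50, Vps28 at −0.48 and Vps37c at −0.45. Of those 9 genes, 6 were highest in wildtype replicate 3, and without it the median was −0.12; without wildtype replicate 1 it was −0.69. ESCRT-II had 2 of 3 lower means, with Vps36 at 0.62, Snf8 at −0.47 and Vps25 at −0.25. Without wildtype replicate 3 those values were 0.20, −0.18 and 0.23, and the median was 0.20 in place of −0.25. Without wildtype replicate 1 the median was −0.66, without Gas2l3 -/- replicate 2 it was −0.38, and without Gas2l3 -/- replicate 1 it was −0.14.

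The other ESCRT-III subunits and VPS4 cofactors had 7 of 9 means higher and a median of 0.14. With GC and length trends removed and the replicate block, 4 of the 9 means were lower and the median was 0.027; the difference from other lists was not tested. Chmp5 stood at 0.83 (SE 0.48), Chmp3 at 0.67 (SE 0.41) and Mitd1, which binds ESCRT-III at the midbody, at 0.51 (SE 0.35). Chmp5 had 46.1, 84.8 and 52.3 FPKM in Gas2l3 -/- replicates 1, 2 and 3, against 45.4, 52.3 and 15.1 FPKM in wildtype replicates 1, 2 and 3. Here too wildtype replicate 3 was the lowest library, and without it the median of the list was 0.043. It was 0.32 without wildtype replicate 1 and 0.36 without wildtype replicate 2, beside 0.22 without Gas2l3 -/- replicate 1. The accessory and checkpoint genes had 10 of 15 lower means and a median of −0.12, with Pdcd6, the partner of ALIX, at 0.48. Without wildtype replicate 3 the median was 0.007 and Pdcd6 stood at 0.24, and without wildtype replicate 1, Gas2l3 -/- replicate 3 or wildtype replicate 2 the median was −0.27, −0.21 or −0.20.

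The lowest of the accessory and checkpoint genes was Aurkb, the kinase that holds back abscission while chromatin lies in the bridge. It had 16.2, 14.4 and 14.5 FPKM in Gas2l3 -/- replicates 1, 2 and 3, against 24.4, 22.7 and 27.0 FPKM in wildtype replicates 1, 2 and 3. The groups did not overlap, as they did not, in this direction, for 4.74% of all tested genes. The log2 fold change was −0.70 (SE 0.23, limma unadjusted p = 0.0151), which did not pass adjustment.

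The listed genes of the midbody and central spindle were Kif23, Racgap1, Prc1, Kif20a, Kif20b, Plk1, Ect2, Cit, Anln, Kif4 and Kif14. They had lower means in Gas2l3 -/- hearts for 11 of 11 genes, where 51% of all tested genes did, and a median log2 fold change of −0.61. Without wildtype replicate 1 the median was −0.31, still with 11 of 11 means lower. Their groups did not overlap for 5 of the 11, beside 4.74% of all tested genes in this direction. An unadjusted p under 0.05 was found for 3 of the 11, beside 3.25% of all tested genes, while 0 passed adjustment. With GC and length trends removed and the replicate number as a block, 9 of the 11 had an unadjusted p under 0.05, beside 11.4% of all genes, and again 0 passed adjustment. In that fit 0 of the 10 abscission genes had a limma unadjusted p under 0.05, and their median was 0.019. The smallest p were 0.0570 for Tsg101, at −0.41 (SE 0.18), and 0.0597 for Cep55, at −0.34 (SE 0.15). Racgap1, a part of centralspindlin, had 24.1, 20.2 and 28.5 FPKM in Gas2l3 -/- replicates 1, 2 and 3, against 43.4, 37.5 and 48.4 FPKM in wildtype replicates 1, 2 and 3. Every Gas2l3 -/- library lay below every wildtype library, and the log2 fold change was −0.82 (SE 0.26, limma unadjusted p = 0.0123). Kif20b, a kinesin of the midbody, stood at −0.82 (SE 0.27) and Plk1, the kinase that holds CEP55 off the midbody until late in division, at −0.85 (SE 0.33). The proliferation markers had 9 of 10 lower means and a median of −0.58, with Cenpf at −0.89, Aurka at −0.86 and Ccnb2 at −0.73; without wildtype replicate 1 the median was −0.38. These lists were chosen with results of these data known and are no independent evidence of their direction.

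**Figure D4:**
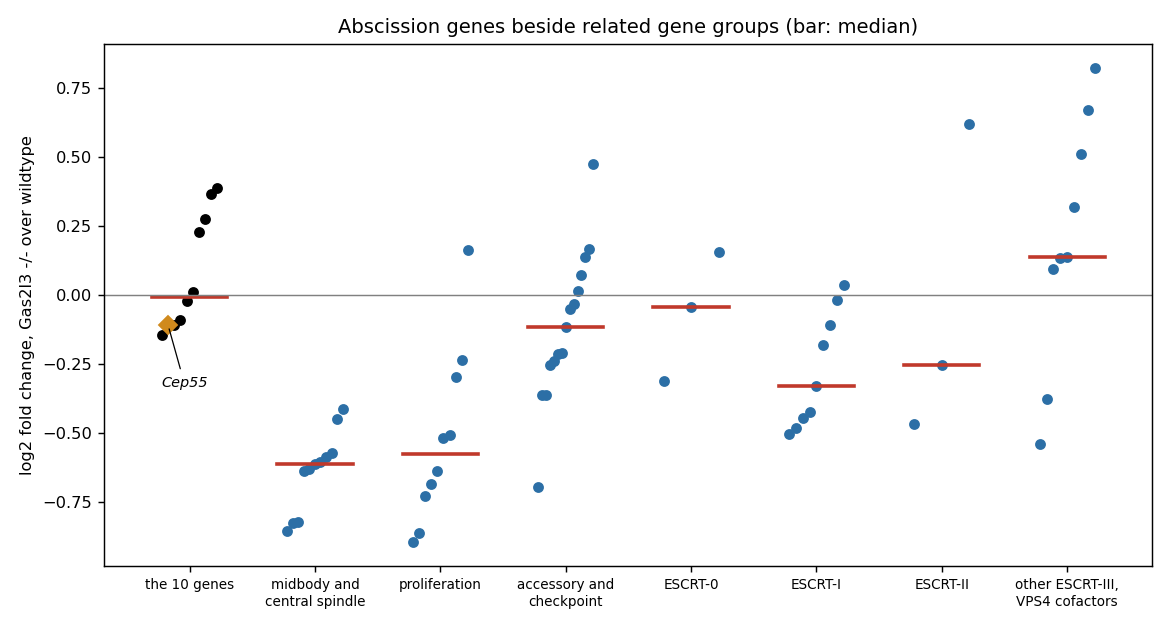
Log2 fold changes (vertical axis, Gas2l3 -/- over wildtype, on log2(FPKM + 0.5)) of the 10 genes and of 7 related gene lists, one point per gene, bars at the medians; the diamond is Cep55. The 10 genes spread around 0, with Cep55 at −0.11, while all 11 midbody and central spindle genes lie below 0 around a median of −0.61. Without wildtype replicate 1 these were 0.23 for Cep55 and −0.31 for the midbody genes. Without wildtype replicate 3 they were −0.50 for Cep55 and −0.735 for the midbody genes, closer together.

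Cep55 was set against each of the 11 midbody and central spindle genes within libraries, a comparison chosen after the values were seen. The ratio of Cep55 to the other gene was higher in Gas2l3 -/- hearts for 11 of 11, by 0.40 to 0.93 on the log2 scale. Over Kif4, a kinesin of the central spindle, the ratio was 1.02, 1.39 and 0.929 in Gas2l3 -/- replicates 1, 2 and 3, against 0.872, 0.912 and 0.542 in wildtype replicates 1, 2 and 3. Kif4 was the 1 gene of the 11 for which the groups did not overlap. For that ratio the exact permutation p was 0.1, the smallest that 3 against 3 libraries allow, and the smallest adjusted p over the 11 was 0.412. All 11 ratios share the same 6 values of Cep55, so they are not separate observations. Without wildtype replicate 3 the ratio was higher for 10 of 11 with a median difference of 0.23, beside 0.54 with all libraries. With GC and length trends removed together it was higher for 11 of 11 with a median of 0.39. With the trends removed one after the other it was higher for 10 of 11. There the median was 0.42 and the lowest difference −0.07.

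Across the 6 libraries, Cep55 followed the level of Ccnb1, the mitotic cyclin B1, with a correlation of 0.914, the highest among the proliferation markers. The correlations of those markers with Cep55 differed widely, down to −0.625 for Mki67. Those of the midbody and central spindle genes ran from −0.526 for Plk1 to 0.745 for Ect2. Vps4b followed Cep55 with a correlation of 0.827, while Chmp2a ran opposite to it at −0.784. The genes with the most similar pattern over the 6 libraries were Cep57 (r = 0.991), AU019823 (r = 0.988), Metap1 (r = 0.984), Aste1 (r = 0.984) and Neu3 (r = 0.983). Cep57 had a log2 fold change of −0.13, and of −0.57 without wildtype replicate 3. These correlations are descriptions over 6 libraries that include wildtype replicate 3, on FPKM with GC and length trends left in. GC content was 44.4% for Cep55, 44.2% for Ccnb1 and 41.7% for Vps4b, against 53.3% for Chmp2a and 56.0% for Plk1. Mki67, which also ran opposite to Cep55, was at 46.6%. The part of GC content in these correlations was not tested.

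In the authors' deposited table, 9 of 12243 genes with an adjusted p passed 0.05 (0.0735%), and 0 of the 10 genes did. The authors' deposited table gives log2 fold changes of −0.15 for Cep55, 0.29 for Chmp4c, 0.25 for Chmp2b and 0.22 for Spast, each with an adjusted p of 0.998.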

How the data were processed

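Poly(A) RNA was selected from total RNA of whole hearts and amplified with 13 PCR cycles, per the labels' protocols. FastQC, DESeq2 and the build mm10 are named in the submitters' processing notes. Aligner, counter, strand setting and gene annotation were not given in the sources used here. The authors deposited one table of FPKM values and a second with their own comparison of the groups. Its columns, per the file headers, are normalized mean counts, log2 fold changes with errors, and p-values.

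From the values, the FPKM were scaled between libraries by size factors. Both tables together gave back whole reads, for 100% of 94235 values above 0 within a tolerance of 0.01, which gave 3414257 to 7732674 reads per library. Reads may be PCR copies, so their number speaks for counting error only. Genes with at least 1 FPKM in at least 3 libraries were tested with limma 3.58.1 (R 4.3.3, intensity trend, two-sided) on log2(FPKM + 0.5), with all 6 libraries, group as the factor and Benjamini-Hochberg adjustment over all 12121 genes at 0.05. The script was tested on simulated data. Fold changes on this scale understate changes of low genes. Ratios within gene pairs were compared by exact permutation over libraries.

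Named were the 10 genes, Gas2l3, of each pathway list up to 3 genes with the smallest p, and the 5 genes most correlated with Cep55 (predicted genes and pseudogenes left out). Of the genes this rule names, 1 is not reported here. Kif4, Ccnb1 and the single genes named with a correlation to Cep55 were chosen after their values were seen. The members and lists were chosen with earlier results of these data known.

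Same-numbered libraries deviated together (correlations of 0.472, 0.443 and 0.185), so replicate number was also fitted as a block. That pairing rests on the data, since the labels give only numbers. GC content was that of each gene's longest transcript in GENCODE M21 (GRCm38, the build mm10), known for 11709 tested genes (96.6%). Each library's trends were taken out by 1 loess fit (span 0.3) on GC content and length together; this form was chosen over removal one after the other after both had been seen, and both are reported. Also tried were a pseudocount of 0.1 or 1, no filter on low values, a minimum mean of 5 FPKM, a common FPKM total, quantile normalization, no intensity trend, library weights, limma-voom on the recovered reads, an adjusted p of 0.1, and each library left out.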

Additional observations from a re-analysis of the deposited data

How the results depend on the processing

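None of the 10 genes was called under 20 of the 21 alternatives to the fit, nor at an adjusted p of 0.1. The exception, library weights by REML, was added after the data were seen and stopped before it converged; it called 5038 genes and 3 of the 10 (Cep55 at −0.37, Tsg101 and Chmp4b) and gave a median over the 10 of −0.17. Over all genes 0 were called, against 1 with GC and length trends removed together, 2 with them removed one after the other and 2 with gene-by-gene library weights; the cause was not tested. The median over the 10 was 0.17 with a common FPKM total, where the median of all genes was 0.15; with voom on recovered reads that of all genes was 0.14. Leaving out each library gave 0 calls throughout, medians over the 10 of −0.008 to 0.096, and pair differences of 0.134 to 0.844 (Chmp4c over Chmp4b), 0.066 to 0.590 (Chmp2b over Chmp2a) and 0.010 to 0.707 (Vps4b over Vps4a).

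With the replicate number as a block, 0 of the 10 were called and the smallest limma unadjusted p was 0.122. When trends were removed together as well, that smallest p was 0.0570, for Tsg101, and 0 were called. The pair differences kept their values under the block, with exact p of 0.25, 0.25 and 0.5, where 3 pairs allow no p under 0.25. The block changed no call of the 10; over all genes it left 0 of the 1 and the 2 calls made with trends removed.

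Signs turned in 37 of 210 fits of the 10 genes and in 31 of 537 of the other named genes, with those under the common total and voom, where the median of all genes was higher too (above). With the common total the values were Cep55 0.050, Tsg101 0.068, Chmp4b 0.089, Chmp2a 0.16, Vps4a 0.031, Stam2 0.12, Cep57 0.031, Metap1 0.13, Aste1 0.044 and Neu3 0.003. With voom they were Cep55 0.078, Tsg101 0.021, Chmp4b 0.044, Chmp2a 0.10, Stam2 0.11, Cep57 0.073, Metap1 0.10, Aste1 0.10 and Neu3 0.041. With quantile normalization they were Chmp4b 0.054, Chmp2a 0.12 and AU019823 −0.059. With trends removed together, with or without the block, they were Pdcd6ip −0.057, Chmp4b 0.15, Chmp2a 0.15 and Stam −0.046. With trends removed one after the other, with or without the block, they were Pdcd6ip −0.082, Chmp4b 0.090, Chmp2a 0.12, Vps4b −0.012 and Stam −0.077. With library weights AU019823 −0.21 turned, and by REML Chmp2b −0.17, Stam2 0.028 and AU019823 −0.21. Among fits without 1 library, the ranges that crossed 0 were Cep55 −0.50 to 0.23, Pdcd6ip −0.11 to 0.20, Chmp4b −0.29 to 0.044, Chmp2a −0.24 to 0.095, Vps4b −0.10 to 0.46, Gas2l3 −0.89 to 0.047, Stam −0.031 to 0.35, Stam2 −0.25 to 0.18, Vps25 −0.66 to 0.23, Cep57 −0.57 to 0.28, AU019823 −0.26 to 0.23, Metap1 −0.24 to 0.11, Aste1 −0.45 to 0.22 and Neu3 −0.28 to 0.031. Depth limits Chmp4c and Cep55 most, at 35 and 83 reads in their lowest library.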
